A study of Mus musculus with 3 samples.

Results

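The CTCFL peaks described here lie at promoters that are rich in CpG dinucleotides and that start transcription of a gene in 1 direction. A peak was included when its center, the midpoint of the deposited interval, lay from -2 kb to +1 kb of the transcription start site (TSS) of a protein-coding transcript. Peaks between or at divergent TSSs of 2 genes at most 1000 bp apart were left out, and the 250 bp on either side of the center had to hold at least 55% GC and a ratio of observed to expected CpG of at least 0.6. These criteria were met by 1285 of the 7436 CTCFL peaks in the list, or 17.3%, and the peaks that met them are called members below. Of the others, 916 lay at CpG-poor one-way promoters, 143 at bidirectional promoters and 5092 outside promoters.

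CTCFL binding was assayed with ChIP-sequencing in ES cells of the mouse, the cultured stem cells of the early embryo, that carry a Tet-on transgene for CTCFL with a V5 tag and a GFP tag and were grown in ES medium with LIF. For the library labelled ES_CTCFL_V5_DOX, the transgene was switched on with doxycycline for 3 days, cells were sorted for GFP, and chromatin was precipitated with the V5 antibody. ES_CTCFL_V5_NODOX came from the same transgenic cells without doxycycline and without sorting, and ES_CTCF was made with the CTCF antibody. Each condition had 1 library, so there are no replicates to give a spread, and the sorted and unsorted libraries differ in more than the doxycycline. CTCFL was driven by a doxycycline-responsive promoter in cells cloned under drug selection, not by its own gene, and these cells are not the testis cells in which the protein normally acts. The peak list belongs to the induced cells and gives only the start and end of each peak. It does not separate sites that CTCF also binds. Depth is unknown, and the intervals below are 95% intervals that cover counting error only.

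CTCFL, also known as BORIS, is a paralog of the ubiquitous insulator and chromatin loop protein CTCF. Both proteins bind DNA through similar arrays of zinc fingers and recognize similar sequences, whereas their terminal domains differ. Most mammalian housekeeping genes and many developmental genes start in CpG islands, stretches in which CpG is frequent and usually free of methylation, and such promoters seldom rely on a TATA box.

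The sequences below show how the CTCFL consensus lies at these promoters. The consensus, read from the sequence logos of the study, has 14 positions and is written CCNNNAGGNGGCGC, with N for any base. Its 10 fixed positions were searched on both strands in the central 200 bp of each peak, with up to 1 mismatch, and the best match was kept. The study drew its logos from CTCF and CTCFL binding sites in its ES cells, so the consensus is not independent of these peaks. The first 6 sequences are the members with an exact match whose match lay nearest the TSS, and the last 4 are from promoters that the study names. Each reads 5′ to 3′ in the direction of the consensus, with the match in capitals and 10 bases of flank, and all positions are on mm9.

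Man2b2, chr5:37221878-37221911, minus strand: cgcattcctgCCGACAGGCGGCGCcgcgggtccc
Zfp341, chr2:154439011-154439044, minus strand: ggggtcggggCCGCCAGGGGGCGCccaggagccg
Klc2, chr19:5117578-5117611, plus strand: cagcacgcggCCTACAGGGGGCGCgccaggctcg
Acpl2, chr9:96789885-96789918, minus strand: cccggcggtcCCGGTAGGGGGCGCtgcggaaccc
Nudt17, chr3:96512477-96512510, minus strand: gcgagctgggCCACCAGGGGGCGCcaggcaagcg
Radil, chr5:143027002-143027035, minus strand: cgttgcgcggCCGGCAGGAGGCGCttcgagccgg
Rapgef1, chr2:29475196-29475229, plus strand: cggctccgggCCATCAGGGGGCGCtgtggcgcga
Prss50, chr9:110760398-110760431, plus strand: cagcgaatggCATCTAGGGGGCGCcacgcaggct
Vps18, chr2:119114387-119114420, minus strand: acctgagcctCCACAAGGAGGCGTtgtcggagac
Uqcrc1, chr9:108838619-108838652, plus strand: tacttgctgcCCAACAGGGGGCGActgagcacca

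The 6 exact matches nearest the TSS lay between 12.5 bp downstream and 10.5 bp upstream of it, counted from the middle of the match. At Man2b2, a lysosomal mannosidase, the match was at -2.5 bp and ran in the direction of transcription. At Zfp341, a zinc finger gene, it was at -5.5 bp and ran against it. Klc2, a kinesin light chain, had its match at -8.5 bp and also against the gene, whereas the matches at Acpl2 (-8.5 bp), Nudt17 (-10.5 bp) and Radil (12.5 bp) ran with the gene.

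Among the promoters named by the study, Rapgef1, a guanine nucleotide exchange factor for Rap GTPases, had an exact match at -27.5 bp. Prss50, a serine protease of the testis, had a match at -56.5 bp with the substitution C2A, where the base of the consensus comes first, then its position counted from 1 at the 5′ end, then the base of the site. Vps18, a subunit of the complexes that tether vesicles to lysosomes, carried C14T at -74.5 bp. Uqcrc1, a core subunit of respiratory complex III, carried C14A at -25.5 bp. The centers of the peaks lay at -68 bp (Rapgef1), -128 bp (Prss50), -45 bp (Vps18) and -74 bp (Uqcrc1), and the widths were 691, 610, 567 and 415 bp in the same order. All 4 centers were upstream of the TSS and within 150 bp of it.

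Rapgef1 shows that a promoter can hold several matches, and its sequence is given from 250 bp before to 49 bp after the first base of the transcript, chr2:29474990-29475289, with all matches of up to 1 mismatch in capitals. Prss50 is given for the same distances, chr9:110760221-110760520. Both genes lie on the plus strand.

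Rapgef1: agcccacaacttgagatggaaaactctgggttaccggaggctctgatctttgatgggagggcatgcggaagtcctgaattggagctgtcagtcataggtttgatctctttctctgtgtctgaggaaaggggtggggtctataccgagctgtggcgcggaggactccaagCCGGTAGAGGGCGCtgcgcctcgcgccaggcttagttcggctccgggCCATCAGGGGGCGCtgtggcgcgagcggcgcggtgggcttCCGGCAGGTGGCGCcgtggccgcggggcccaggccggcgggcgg
Prss50: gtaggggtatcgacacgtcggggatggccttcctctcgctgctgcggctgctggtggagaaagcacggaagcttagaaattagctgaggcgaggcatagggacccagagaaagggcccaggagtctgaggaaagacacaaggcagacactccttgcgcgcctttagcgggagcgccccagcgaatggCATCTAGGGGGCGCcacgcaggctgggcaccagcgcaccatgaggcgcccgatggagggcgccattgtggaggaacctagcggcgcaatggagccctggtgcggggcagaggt

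At Rapgef1 the matches lay at -74.5 bp with 1 mismatch and at -27.5 and 12.5 bp without a mismatch, all in the direction of the gene. Prss50 held a single match. Over all members, 500 had 1 match in the central 200 bp, 52 had 2 and 10 had 3 or more, while 723 had none.

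The question of where CTCFL sits on these promoters was addressed with the distance from peak center to the nearest TSS. The median was -7 bp, with quartiles of -128 and 178 bp. Centers lay within 100 bp of the TSS in 37.7% of members (35.1 to 40.4%), within 250 bp in 68.3% (65.7 to 70.8%) and within 500 bp in 85.8% (83.8 to 87.6%). Because the composition rule itself favors sequence near the TSS, every base from -2 kb to +1 kb of a one-way TSS was tested against the same thresholds. Of the positions that passed, 27.8% lay within 100 bp, 56.6% within 250 bp and 82.3% within 500 bp. Upstream positions made up 38.0% of them, compared with 52.1% of the members (49.4 to 54.9%). The plot of positions shows that the members exceeded the eligible positions mainly just upstream of the TSS.

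**Figure D1:**
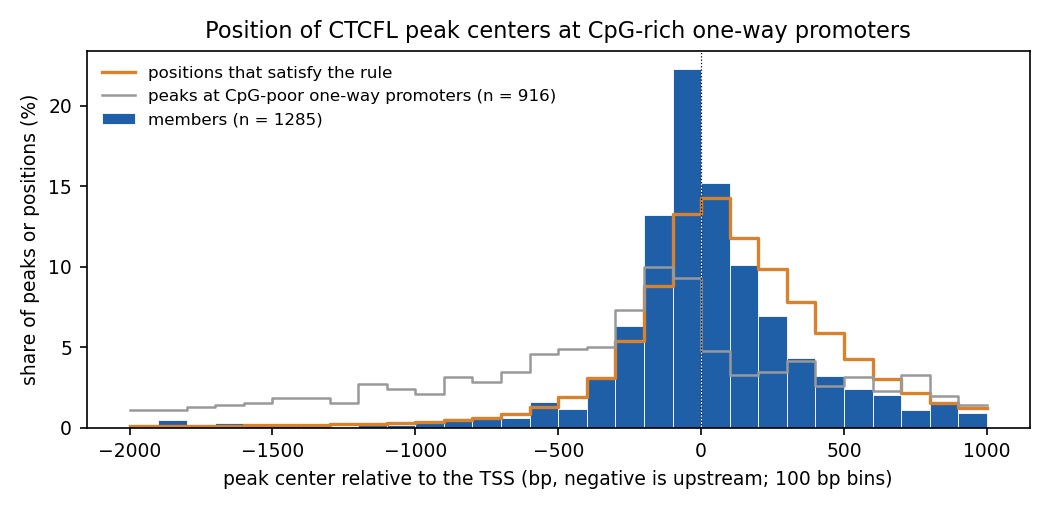
Share of CTCFL peak centers (y axis, percent) by distance to the TSS (x axis, bp, in bins of 100 bp) for members (bars), for peaks at CpG-poor one-way promoters (gray line) and for all positions that satisfy the composition rule (orange line). The bin from -100 to 0 bp holds 22.3% of members and 13.3% of eligible positions.

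The bin from -100 to 0 bp held 287 members, or 22.3%, and the bin before it 13.2%. In the eligible positions the corresponding shares were 13.3% and 8.8%. Downstream the order turned, with 6.93% of members and 9.88% of eligible positions between 200 and 300 bp. By annotation, 670 centers were upstream of the TSS, 265 in an exon outside coding sequence (20.6%), 214 in an intron (16.7%) and 136 in a coding exon (10.6%). The interval of the peak itself covered the TSS in 69.5% of members (66.9 to 72.0%). The outermost members were at -1905 bp, at Runx3, a transcription factor of blood and T cell development, and at 1000 bp, at Foxd3, a forkhead factor of pluripotent and neural crest cells.

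The exact CTCFL consensus was found at similar shares in all groups of peaks, 10.9% of members, 10.8% at CpG-poor promoters, 9.09% at bidirectional promoters and 10.3% outside promoters. The differences of the members from these groups were 0.0871, 1.8 and 0.585 points, with adjusted p of 1.0, 0.742 and 0.742 by Fisher's exact test, two-sided, with adjustment over 13 tests. With up to 1 mismatch allowed, a match was found in 562 of 1285 members, or 43.7% (41.0 to 46.5%). The share was 37.9% at CpG-poor one-way promoters, 34.3% at bidirectional promoters and 32.8% outside promoters. The differences were 5.85 percentage points (1.68 to 9.97, adjusted p = 0.0105), 9.47 points (0.936 to 17.2, adjusted p = 0.0468) and 11 points (7.97 to 14, adjusted p = 1.34e-12) by the same exact test. This comparison is not independent of how the members were chosen, because the rule selected GC and CpG over a window that contains the searched bases, and the consensus is rich in both. In the same exact test the difference from CpG-poor promoter peaks also lost the threshold with GC and CpG over 500 bp on either side of the center (4.51 points, adjusted p = 0.0544). By this exact test it also did so with 1 TSS a gene (4.17 points, adjusted p = 0.119) and with promoters of 500 bp on either side of the TSS (4.7 points, adjusted p = 0.126). The difference from bidirectional promoters missed the threshold in these 3 settings too, at 8.06 to 9.12 points, and in 3 others.

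Base composition moves with this result. The same 14 positions read backwards, a sequence of equal composition but with 2 CpG dinucleotides where the consensus has 1, matched with up to 1 mismatch in 5.68% of members (4.54 to 7.08%). In the other peaks it matched in 0.437% (CpG-poor promoters), 2.8% (bidirectional promoters) and 0.786% (outside promoters). The members were thus highest for the backwards sequence as well, and the part of composition in the shares with 1 mismatch was not tested.

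**Figure D2:**
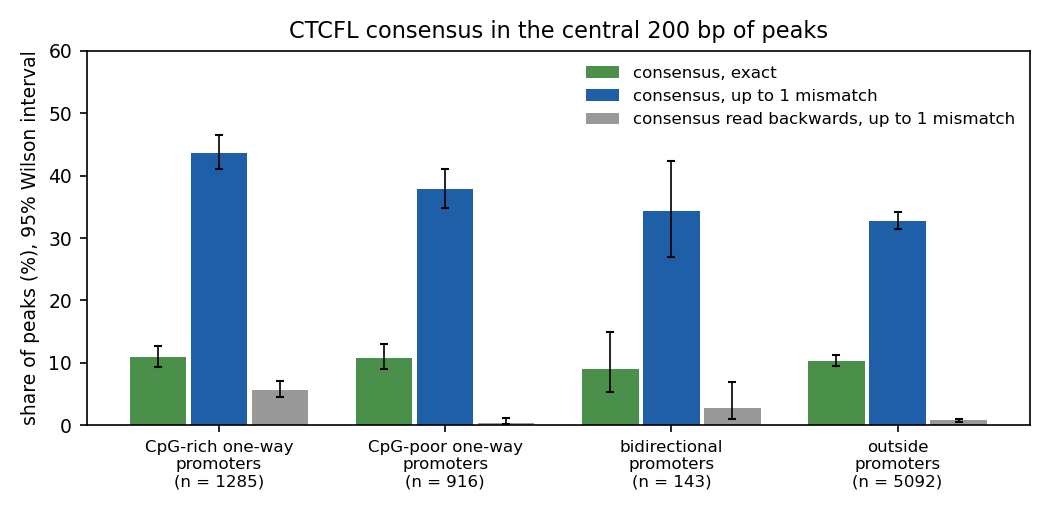
Share of peaks (y axis, percent, error bars 95% Wilson intervals) with the consensus in the central 200 bp, exact (green), with up to 1 mismatch (blue), or read backwards with up to 1 mismatch (gray), for members and the other peaks (x axis). Exact matches are at 9.09 to 10.9% in every group, and members are highest with 1 mismatch (43.7%) and for the backwards sequence (5.68%).

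The distance from match to peak center was bounded by the search, which covered only the central 200 bp and kept the match nearest the center where mismatches were equal. Within that limit the median distance was 34.5 bp (quartiles 16.5 and 58.5 bp, maximum 93.5 bp), so it does not show how tightly matches gather at the center. When the whole peak was searched, a match was found in 58.5% of members. Relative to the TSS the median match of the members was at -39.5 bp, with quartiles of -118.25 and 157.5 bp.

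The 562 best matches comprised 412 distinct sequences, and 140 of the matches were exact. The most frequent sequences are given with their consensus positions in capitals, since they show which bases the free positions take, and the last pair, most frequent outside promoters, is given for contrast.

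Members, 23 times: CCGCCAGGGGGCGC
Members, 9 times: CCGGCAGGGGGCGC
Members, 7 times: CCAGCAGAGGGCGC
Outside promoters, 44 times: CCAGCAGGGGGCGC
Outside promoters, 40 times: CCAGAAGAGGGCGC

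The first of these sequences, with G at position 3, was the best match of 23 members and of 21 of the 5092 peaks outside promoters. The sequence found 44 times outside promoters, with A at position 3, was the best match of 5 members. The one found 40 times there was the best match of 0 members, which allows a share of up to 0.233% of members.

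Position 3, which is free in the consensus, took other bases in the members than at CpG-poor promoters and outside promoters. G was found there in 44.1% of matches (40.1 to 48.3%), A in 21.0%, T in 19.6% and C in 15.3%. At bidirectional promoters G made up 44.9% and A 22.4% of 49 matches, whereas outside promoters A made up 53.1% and G 14.7%. The share with A was lower in the members, with a difference of -32.1 points from peaks outside promoters (-36.1 to -27.8, adjusted p = 2.71e-41) and of -18.2 points from CpG-poor one-way promoters (-24.3 to -12.1, adjusted p = 1.08e-08) by Fisher's exact test, two-sided. Compared with bidirectional promoters the difference was -1.45 points, with an interval of -15.3 to 8.62 (adjusted p = 0.926, Fisher's exact test), which leaves the direction unknown. The base before position 3 is a fixed C of the consensus, so G at position 3 makes a CpG and A does not. The composition rule selected CpG, so the differences in A from CpG-poor promoters and outside promoters are not independent of how the members were chosen. The bases flanking the matches differed by less, but their shares do not account for CpG. In the 20 bases on either side, A made up 14.7% in members, 20.8% at CpG-poor promoters and 21.8% outside promoters. G made up 34.3%, 28.6% and 27.1% in the same order. At position 4 the share of A was 11.2% in members and 8.63% outside promoters, and at position 5 it was 9.43% and 16.5%. Free positions 5 and 9 differed in other bases as well. G at position 5 made up 20.5% in members and 6.59% outside promoters. At position 9, C was more frequent in members than outside promoters, whereas G was less frequent, 56.0% compared with 67.8%. The shares at positions 4, 5 and 9 carry no test. The share of composition in the differences at positions 3, 5 and 9 was not tested, and the match lies inside the window that the composition rule used.

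**Figure D3:**
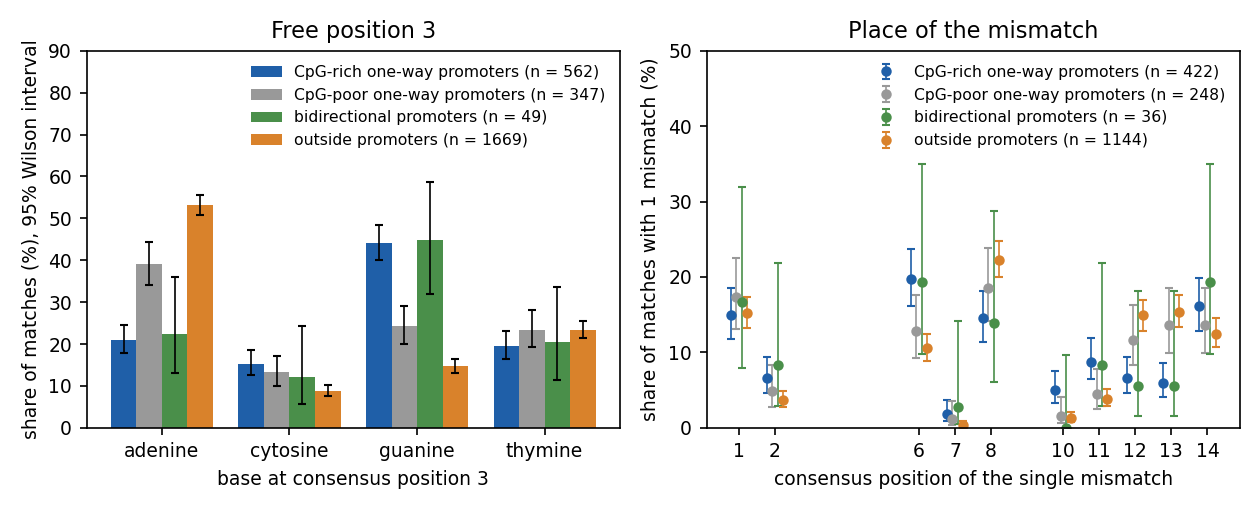
Left, share of consensus matches (y axis, percent) with each base at free position 3 (x axis); right, consensus position (x axis) of the mismatch as a share of matches with 1 mismatch (y axis, percent), for members (blue), CpG-poor promoters (gray), bidirectional promoters (green) and peaks outside promoters (orange), with 95% Wilson intervals. Guanine leads at position 3 in members (44.1%) and at bidirectional promoters (44.9%) and adenine outside promoters (53.1%).

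The place of the tolerated mismatch is given next. In 422 members with a single mismatch it was at position 6 in 19.7% (16.2 to 23.7%), at position 14 in 16.1%, at position 1 in 14.9% and at position 8 in 14.5%. At bidirectional promoters the order was like that of the members, with 19.4% at position 6, 19.4% at position 14, 16.7% at position 1 and 13.9% at position 8 of 36 matches. Outside promoters position 8 came first with 22.3%, almost all of it G8A (248 of 1144 matches), and position 6 held 10.6%. The CpG at positions 12 and 13 of the consensus was kept in 90.6% of the matches of members (87.9 to 92.7%), 91.8% at bidirectional promoters, 81.8% at CpG-poor promoters and 79.3% outside promoters (77.3 to 81.1%). The substitutions C12T and G13A, the changes that deamination of a methylated CpG produces, were seen in 4 and 8 of the 422 members with 1 mismatch. Outside promoters they were seen in 35 and 127 of 1144 such peaks. Mismatches of any kind at positions 12 and 13 numbered 28 and 25 in members and 170 and 176 outside promoters, so most changes at position 12 were not C12T. What produced the changes was not tested. The values for the CpG and its substitutions were looked at after the data were seen and carry no test. The rule selected for CpG over a window that includes the match.

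With respect to the direction of transcription, 326 of 562 matches, or 58.0% (53.9 to 62%), read along the gene. At CpG-poor one-way promoters the share was 56.8%, a difference of 1.23 points with an interval of -5.33 to 7.85 (adjusted p = 0.863, Fisher's exact test). The share was also taken by the place of the peak center, with 1 best match for each member. Among members with their center from -100 to -1 bp, 100 of 146 matches read along the gene, or 68.5% (60.6 to 75.5%), and from 0 to 100 bp the share was 67.9%. From there to 250 bp downstream it was 37.3% (26.7 to 49.3%). Members from -100 to -1 bp also had the highest share with a match at all, 50.9% (45.1 to 56.6%), and those beyond 100 and up to 250 bp had 38.1% (31.2 to 45.4%).

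Width is the only property of a peak that the list gives besides its place. The middle member was 539 bp wide, the quartiles were 437 and 644 bp, and the extremes 183 and 2498 bp. The medians of the other groups were 481 bp at CpG-poor, 528 bp at bidirectional promoters and 425 bp outside promoters. At or above 454 bp, the median of the whole list, were 71.0% of members, 56.2% of CpG-poor promoter peaks and 42.9% of peaks outside promoters. The differences of 14.8 points (10.7 to 18.8, adjusted p = 3.64e-12) and 28.0 points (25.1 to 30.8, adjusted p = 1.72e-72) passed Fisher's exact test, two-sided. From bidirectional promoters, with 73.4%, the members differed by -2.45 points (-9.49 to 5.7, adjusted p = 0.729, Fisher's exact test).

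The share of members with the consensus did not rise steadily with width. From the narrowest quintile to the widest, a match was found in 43.1%, 45.2%, 38.7%, 54.9% and 36.7% of members, and the exact consensus in 11.2%, 10.3%, 10.7%, 13.3% and 8.98%. The widest quintile (672 to 2498 bp) thus had the lowest value of either measure, with intervals of 31.1 to 42.8% and 6.06 to 13.1%. For the exact consensus this interval overlapped those of all other quintiles. Only the central 200 bp were searched at any width, so matches elsewhere in a wide peak were not counted. The widest member was at Klf5, a zinc finger transcription factor of pluripotent and epithelial cells, with 2498 bp and its center at 395 bp in a coding exon. It was followed by Tbc1d4, a regulator of Rab GTPases in glucose transport, with 2401 bp. Arhgap26, a GTPase-activating protein, had 1759 bp, Sco2, a copper chaperone of cytochrome c oxidase, 1714 bp, and Ndfip2, an adaptor of ubiquitin ligases, 1425 bp. None of these 5 held an exact consensus in the central 200 bp, and only the Klf5 peak held a match with 1 mismatch (G7C).

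The sequence of the members was seldom repeated. All windows of 36 bases, the read length, occurred once in the genome in 91.4% of members, compared with 82.8% at CpG-poor promoters and 79.2% outside promoters (differences of 8.69 and 12.2 points, adjusted p = 2.8e-09 and 1.37e-26, Fisher's exact test, two-sided). At bidirectional promoters the share was 91.6%, a difference of -0.169 points (-4.06 to 5.71, adjusted p = 1.0, Fisher's exact test). These comparisons of uniqueness were added after the data were seen. Under 90% of windows were unique in 25 members, or 1.95%. In the peak at Fndc1 0.0% of windows were unique, so that the place of its reads is uncertain (this gene was named after its value was seen). The peaks at Rpl5 (75.9% unique windows) and Polr2c (86.9%) share sequence with other places in the genome and are uncertain as well.

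At the level of genes, the members lay at 1276 protein-coding genes, and 9 genes had 2 members. To ask which CpG-rich promoters held a member, all protein-coding genes with a CpG-rich window at a TSS outside divergent pairs were taken as background. Of 9744 such genes 1198 had a member, or 12.3% (11.7 to 13%). Another 78 genes had a member although the window at their own TSS was not CpG-rich. The share with a member was 8.59% on the X chromosome (22 of 256 genes, 5.74 to 12.7%), an interval that includes the share of all these genes. On the autosomes it lay between 9.95% (chromosome 12) and 15.3% (chromosome 11).

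CpG-rich one-way promoters with a member differed from those without one in the consensus and little in other promoter motifs. The consensus was drawn from binding sites in these same cells, so its difference is a description and not independent support. Within 250 bp of the TSS, the exact consensus was found in 10.4% of 1198 promoters with a member and in 1.33% of 8546 without, a difference of 9.02 points (7.39 to 10.9). With up to 1 mismatch the shares were 47.1% and 21.5%. The consensus read backwards was found in 13.4% and 14.2%, a difference of -0.743 points (-2.71 to 1.43). The median GC content of these windows was 67.5% with a member and 65.9% without, and the median ratio of observed to expected CpG was 0.85 and 0.831. Of the 8546 promoters without a member, 239 had another CTCFL peak in this window, so that group is not free of CTCFL peaks.

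Other motifs were sought by their letters on both strands. The GC box GGGCGG, bound by SP and KLF factors, was found in 86.3% of promoters with a member and 87.7% without. It can overlap the consensus where position 14 is G. The ETS motif CCGGAAG was found in 22.8% and 21.3%, and the NRF1 motif GCATGCGC in 6.93% and 6.51%. The CCAAT box, bound by NF-Y, was less frequent with a member, 36.6% compared with 41.3%, a difference of -4.77 points (-7.65 to -1.81). The same held for the CRE motif TGACGTCA, the site of CREB, with 2.42% compared with 4.0% (difference -1.58 points, -2.43 to -0.474). The YY1 motif AAGATGGC was found in 7.85% and 6.13% (difference 1.71 points, 0.226 to 3.45). Over all 9744 promoters these shares were 87.5% for the GC box, 21.5% for ETS, 6.56% for NRF1, 40.7% for CCAAT, 3.81% for CRE and 6.34% for YY1. A motif found by its letters need not be a bound site.

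The closer the best match of a promoter was to the consensus, the more often the promoter had a member. Because the consensus came from binding sites of the same study, the direction of this trend was built in, and the shares only describe it. Of 238 promoters with an exact match, 124 had a member, or 52.1% (45.8 to 58.4%). The share was 20.4% with 1 mismatch (440 of 2160), 9.39% with 2 mismatches (581 of 6190) and 4.58% with 3 or more (53 of 1156). Of the 114 promoters with an exact match and no member, 11 had another CTCFL peak within the same 250 bp. The remaining ones held the exact letters and no peak of the list in that window.

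**Figure D4:**
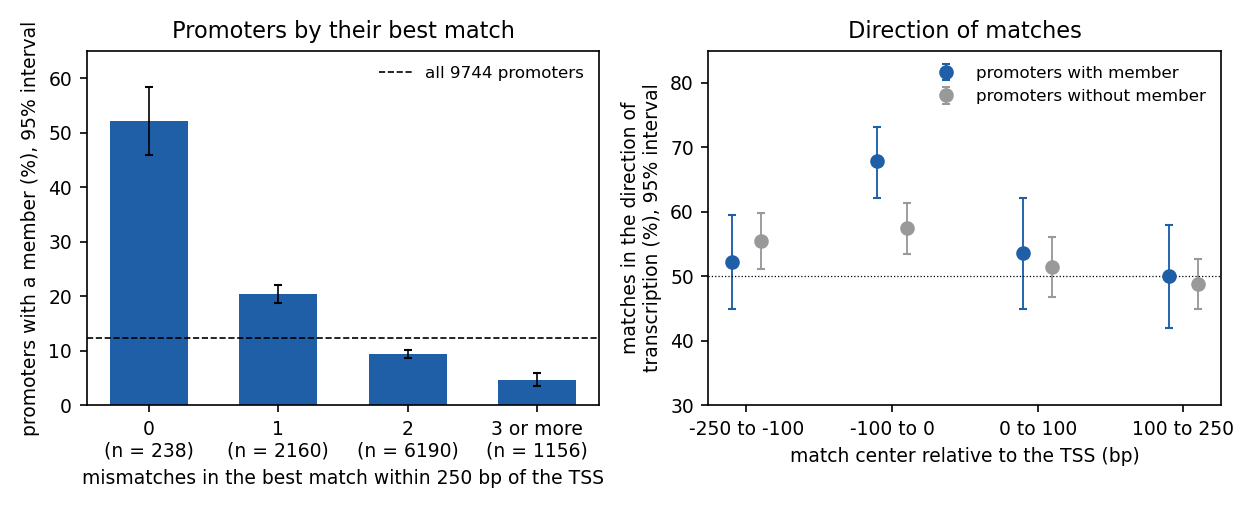
Left, share of CpG-rich one-way promoters with a member (y axis, percent) by mismatches in the best consensus match within 250 bp of the TSS (x axis), with the share over all promoters as a dashed line (12.3%); right, share of matches that read in the direction of transcription (y axis, percent, axis from 30) by place of the match (x axis, bp), for promoters with (blue) and without (gray) a member. Bars and points have 95% Wilson intervals, and the share with a member falls from 52.1% to 4.58%.

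In promoters with a member, matches of up to 1 mismatch were densest in the 100 bp before the TSS, with 23.1 matches per 100 promoters compared with 7.0 in promoters without a member. There, 67.9% of 277 matches read along the gene in promoters with a member (62.2 to 73.1%) and 57.5% of 598 in promoters without (53.5 to 61.4%). In the 100 bp after the TSS the shares were 53.7% and 51.5%, and the intervals overlapped. Between 100 and 250 bp downstream the matches were evenly split with a member, 73 of 146 (42 to 58%), and 48.8% read along the gene without one. The lower share of 37.3% downstream, given above for members by peak center and best match, was thus not seen when all matches were placed by their own position. The backwards sequence read along the gene in 41.2% of 34 matches before the TSS of promoters with a member (26.4 to 57.8%) and in 44.0% of 282 without.

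The genes with a member were also counted by function, in lists taken by gene symbol, against the share of 12.3% in all CpG-rich one-way genes. The highest share was found for Ctcf and the cohesin complex, the ring that holds sister chromatids together and forms loops with CTCF, where 6 of 12 genes had a member (25.4 to 74.6%). These were Ctcf itself, the meiotic kleisin Rec8, the acetyltransferase Esco1, the cohesin regulator Pds5b and the subunits Stag1 and Stag2, of which the last pair was named after the values were seen. Esco1 had an exact match at -78.5 bp, Ctcf a match with G13C at 180.5 bp in an intron, and the best match at Rec8 had 3 mismatches. With 12 genes in the list the interval is wide.

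Among meiosis and germ cell genes 9 of 46 had a member (19.6%, 10.7 to 33.2%). The widest were at Boll, an RNA-binding protein of meiotic germ cells (876 bp), Tdrkh, a tudor protein of the piRNA pathway (709 bp), Mns1, a protein of the sperm flagellum (704 bp), and Rec8 (651 bp). Dazl, an RNA-binding protein that germ cells need, is added after its values were seen, because its match was exact and lay at -40.5 bp in the direction of the gene. No other gene of this list had an exact match. The best match had 3 mismatches at Boll, Mns1 and Rec8, 2 at Tdrkh and 1 at the others. Among pluripotency genes 4 of 19 had a member (21.1%, 8.51 to 43.3%), namely Klf5, Tbx3, Mycn and Sall4. Both intervals include the share of all genes.

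Genes for basic cell functions were close to the background or below it. Members were found at 9 of 63 genes for cytosolic ribosomal proteins (14.3%), 6 of 39 for mitochondrial ribosomal proteins (15.4%) and 8 of 46 for nuclear-encoded oxidative phosphorylation proteins (17.4%). Of the latter, Ndufa6, a subunit of complex I, had an exact match at -145.5 bp. Mediator and TFIID had 6 of 39 (15.4%), with exact matches at Med1 (68.5 bp) and Med15 (147.5 bp), and splicing factors 5 of 33 (15.2%). The proteasome had 1 of 29 (3.45%, 0.611 to 17.2%), at Psmd7. DNA repair genes had 1 of 51 (1.96%, 0.347 to 10.3%), at Pold1, the catalytic subunit of DNA polymerase delta, and here the interval lies below the background.

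**Figure D5:**
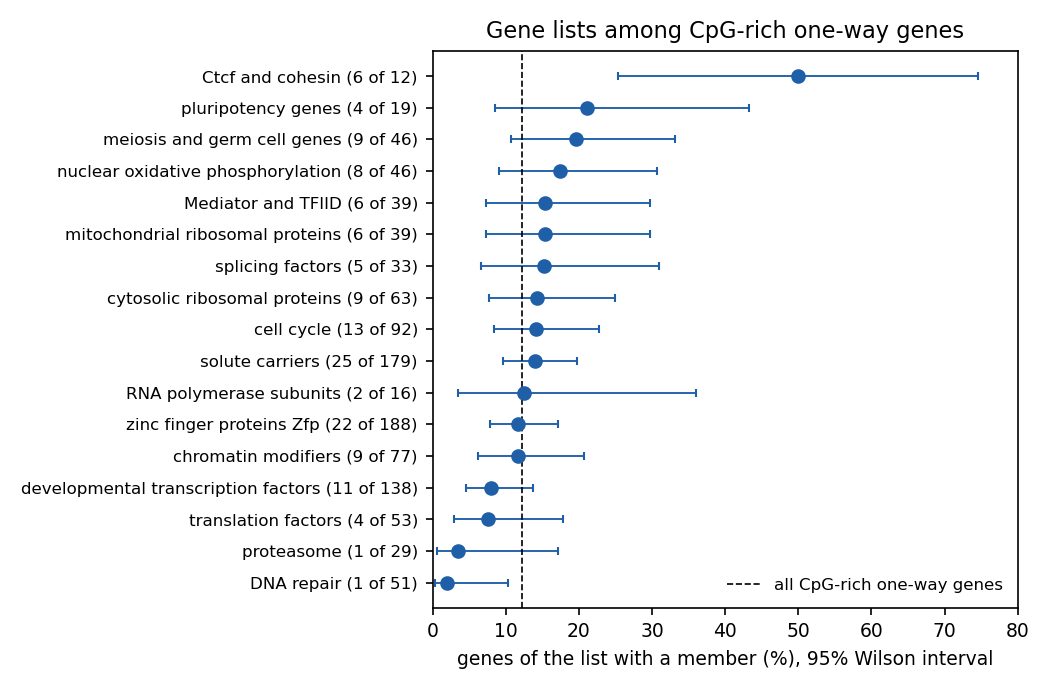
Share of genes with a member (x axis, percent, 95% Wilson interval) in 17 lists of CpG-rich one-way genes (y axis, with counts), and the share in all such genes as a dashed line (12.3%). Ctcf and cohesin genes are highest (6 of 12) and DNA repair genes lowest (1.96%), and the intervals of the other lists include the dashed line.

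Developmental transcription factors had members at 11 of 138 genes (7.97%, 4.51 to 13.7%). The widest were at Tbx3 (742 bp, center 2 bp from the TSS), Foxd3 (640 bp, 1000 bp), Foxb2 (529 bp, -726 bp) and Sox8 (495 bp, -344 bp). Zinc finger genes with the symbol Zfp had 22 of 188 (11.7%), solute carriers 25 of 179 (14%), cell cycle genes 13 of 92 (14.1%) and chromatin modifiers 9 of 77 (11.7%). RNA polymerase subunits had 2 of 16 (12.5%) and translation factors 4 of 53 (7.55%).

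Genes with 2 members showed that the peaks of a gene can differ in sequence. At Mxi1, a MAX-binding repressor with alternative promoters, the peak at 6 bp had 2 mismatches in its best match and the other, at 286 bp from an alternative TSS, was exact. At Upf3a, a factor of nonsense-mediated decay, the peak at -145 bp had 2 mismatches and the one at 639 bp was exact. Dlgap4 had 1 mismatch at the peak 578 bp upstream of a TSS, and an exact match at the peak 71 bp upstream of another. Ciz1, Espn, Ep400, Efcab4a and Zmym2 also had 2 members each.

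Members without a match to the consensus resembled those with one in width, with medians of 534 and 544 bp. Their centers lay a median of 155 bp from the TSS, compared with 136 bp. The median GC content was 64.7% and 66.1%. The GC box was found in the central 200 bp of 50.3% of members without a match (46.7 to 54.0%) and 60.1% of those with one (56.0 to 64.1%). In 200 members, or 15.6%, even the best match had 3 or more mismatches, and 43.5% of these held a GC box.

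The limits of the rule cut through a continuum. Just inside the GC limit was the peak at Sh2b1 with 55.09%, and just outside the one at Ado with 54.89%. Just outside the limit of CpG was the peak at Nrtn with 0.5997. On the upstream side the last member, Runx3, lay at -1905 bp and the next CpG-rich peak, at Ndufa4l2, at -2004 bp, and on the downstream side Foxd3 lay at 1000 bp and Ascl2 at 1001 bp. The nearest divergent TSS was 1001 bp away at Leprel4, which was kept, and 994 bp away at Abca3, which was not.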

How the data were processed

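The authors induced CTCFL in transgenic ES cells, precipitated chromatin with the V5 antibody, and sequenced 1 library per condition. The methods of the study name ELAND for mapping its reads of 36 bases and non-induced cells as the control of the CTCFL ChIP. For the comparison with published data sets they name BOWTIE on mm9, a filter for uniquely placed reads, and MACS at a false discovery rate below 0.05. The deposited file holds interval positions on mm9 for the induced cells and no other value, so depth and peak height are unknown. Which of these steps gave this list, and whether only unique reads were used, is not stated. The list is longer than the set of CTCFL sites counted by the study, and how the sets relate was not tested. CTCF binding was not analysed here, 0 columns were left unmapped, and the 3 samples were grouped by their titles.

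Starts were converted to 1-based positions. TSSs, exons and genes came from the GENCODE annotation on mm9 (22359 protein-coding genes), and each promoter peak was assigned to the nearest TSS. Observed over expected CpG was the number of CpG times the window length, divided by the product of the C and G counts. A divergent pair was a minus-strand TSS up to 1000 bp left of a plus-strand TSS of another protein-coding gene. Consensus matches had fewest mismatches and then lay nearest the center. Every 36-base window was searched in the whole genome on both strands. Parts of the list were compared with Fisher's exact test, two-sided, with Newcombe intervals and Benjamini-Hochberg adjustment over 13 tests, and single shares have Wilson intervals. The peaks of 1 library are not replicates, so p-values cover counting error between peaks only. Functions were tested on simulated data. Python 3.11.15, scipy 1.17.1, pandas 2.3.3 and numpy 2.4.6 were used.

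The members, lists and tests were chosen with earlier results of these data known. Named genes are those the study names, the 5 widest members, genes with more than 1 member, the 6 exact matches nearest a TSS, up to 4 widest members of each list, and the peaks at each limit of the rule; some of these are not reported here. Alternatives changed the composition window and thresholds, the TSS set, the pairs, the promoter interval, uniqueness, the sex chromosomes and the consensus search.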

Additional observations from a re-analysis of the deposited data

How the results depend on the processing

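No paired analysis was possible because 1 library stood for each condition, and no library could be left out. Over 19 results and 11 alternatives, 144 of 179 values kept their direction and their side of the threshold, or stayed within the interval of the reported value. For the share of peaks with A at position 3 the difference stayed between -22.0 and -11.4 points against CpG-poor promoters and between -36.1 and -28.3 points against peaks outside promoters, and for wide peaks between 10.1 and 15.4 and between 26.2 and 28.9 points.

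The difference in consensus matches from CpG-poor promoters missed the threshold at 4.51 points (composition over 500 bp on either side of the center), 4.17 points (1 TSS a gene), 4.7 points (promoters of 500 bp on either side) and 0.0871 points (exact consensus). From bidirectional promoters it missed it at 9.12, 8.3, 8.06 and 1.8 points in the same order, at 6.38 points with divergent pairs up to 2 kb and at 6.11 points with 2 mismatches. From peaks outside promoters it missed it only with the exact consensus (0.585 points). The cause was not tested.

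By construction, the share of members with a match was 10.9% for the exact consensus, 84.4% with 2 mismatches and 58.5% over the whole peak. With GC of at least 60% and a CpG ratio of at least 0.75, 723 members remained, 46.5% had a match, 72.3% lay within 250 bp of the TSS and 9.36% of genes had a member. The share within 250 bp was 63.6% with composition over 500 bp on either side of the center, 62.4% with 1 TSS a gene and 79.6% with promoters of 500 bp on either side. The share of genes was 13.5% and 10.9% under the first and last of these.

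Changes of sign occurred only where no difference had passed the test. The comparison of A at position 3 with bidirectional promoters was added after seeing the data, as were all comparisons of fully unique peaks. Against bidirectional promoters, A at position 3 turned to 4.46 (1 TSS a gene), 3.62 (500 bp promoters), 2.42 (2 mismatches) and 2.04 points (whole peak), and fully unique peaks turned to 0.171, 2.28, 0.835, 2.98, 0.715, 0.231 and 0.138 points under 7 of 8 alternatives. The direction of matches against CpG-poor promoters turned to -0.224 points with 500 bp promoters.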

Other observations

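The width of the members varied along the genome, which was noticed after the data were seen and carries no test. By chromosome, the median width of members was highest on chromosome 8 (622 bp, 73 members) and chromosome 1 (609 bp, 78 members) and lowest on the X chromosome (422 bp, 23 members), and on the other chromosomes it lay between 463.5 and 562 bp. Over all CTCFL peaks the order was the same at both ends, with 498 bp on chromosome 8, 492.5 bp on chromosome 1 and 390 bp on the X chromosome, leaving out the 2 peaks on the Y chromosome. What moves with the chromosome was not tested.

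On chromosome 14, 3 of the 5 widest members followed each other with only Mycbp2 between them, a gene named after its value was seen. Klf5 (2498 bp), Tbc1d4 (2401 bp), Mycbp2 (821 bp) and Ndfip2 (1425 bp) were the 4 members between 90 and 110 Mb, and all windows in them were unique. The 56 CTCFL peaks of any kind in this stretch had a median width of 567.5 bp, with an upper quartile of 847 bp, and 69.6% were at or above the median of the list. In the other 269 peaks of the chromosome the median was 438 bp, the upper quartile 532 bp and the share 46.8%. All windows were unique in 37 of the 56 peaks of the stretch and in 226 of the other 269. The stretch was chosen for its wide peaks, so this is a description.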
